A study of Homo sapiens with 12 samples.

Results

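The simple epithelial keratins described here are 6 genes, KRT7, KRT8, KRT18, KRT19, KRT23 and KRT80, chosen by symbol as genes whose products form the keratin filaments of single-layered epithelia. All 6 had a row in every table, among 23613 gene symbols. Poly(A) RNA was sequenced from colonies picked by hand from H9 and RUES2 (RUES-2 in the sample labels), which are established human embryonic stem cell lines. Each line was held in the primed or the naive state, with 3 biological replicates in each of the 4 groups. The primed groups (H9 at passages 31 to 35, RUES2 at 30 to 33) shared a layer of mouse embryonic fibroblasts stopped in division with mitomycin C and a medium with 20% knockout serum replacement and 4 ng/mL bFGF. The naive groups (H9 at passages 27 to 31, RUES2 at 24 to 26) shared a medium that held insulin at 18 µg/mL, glucose at 5 mM and LIF at 20 ng/mL. It also held PD0325901, which blocks MEK, at 1 µM and CHIR99021, which blocks GSK3, at 3 µM. The title of the study speaks of transient mTOR inhibition, and no such inhibitor is named in the labels of the 12 libraries. How the replicate cultures were separated is not stated, so a p-value sets a difference against the spread of these libraries only.

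Keratins build filaments only in pairs, one acidic type I protein with one basic type II protein, and a keratin without a partner is normally degraded. KRT8 (type II) and KRT18 (type I) are the first keratins of the embryo and mark the trophectoderm, the outer epithelium of the blastocyst. KRT19 and KRT23 are type I, KRT7 and KRT80 type II. Human pluripotent stem cells in the primed state grow as an epithelial sheet and are known to carry KRT8 and KRT18, while KRT7 is widely used as a marker of trophoblast, amnion and ducts.

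Several facts about the libraries bear on the values below. The tables give FPKM (fragments per kilobase of a gene's transcript, relative to library size), a level per length that can be compared between genes. FPKM summed to between 762859 and 992404 in a library, and 12681 to 13592 genes reached 1 FPKM. Of 11 genes whose expression is known to depend on common genotypes, 1 was on in some libraries and off in others: THNSL2 was at most 0.0839 FPKM in the 3 libraries labelled naive RUES2 and at least 0.844 in the other 9. PEX6 was on in all 12, at 5.63 to 6.49 FPKM in primed RUES2 against 8.22 to 10.5 in primed H9 and at 4.30 to 5.43 against 6.46 to 7.93 in the naive state, so both states of RUES2 lay below H9. Some other genes of this list lay apart between the lines in the naive state only. GSTT1 was at 8.80 to 11.2 FPKM in naive RUES2 against 13.3 to 14.6 in naive H9. CHURC1 was at 7.64 to 9.11 against 5.90 to 6.43, and both genes overlapped between the primed lines. Which line the 3 libraries labelled naive RUES2 come from was not tested. Results with these 3 libraries are therefore given for RUES2 as labelled, and the H9 comparison does not contrast them. Primed H9 replicate 2 stood apart from the other primed H9 libraries in KRT17 (5.83 FPKM against 0.0515 and 0.405), in KRT5 (0.832 against 0 in both) and in the trophectoderm factor CDX2 (1.38 against 0 in both). Replicate 2 was the lowest library of its group for 5 of the 6 keratins (all but KRT23) in naive H9, primed RUES2 and naive RUES2 alike. The same held for 6.81% of the 14428 genes tested. Primed H9 went the other way, with replicate 2 the highest library for KRT7 (4.10 FPKM), KRT8 (177.5), KRT18 (212.5) and KRT19 (63.0). For KRT80 it was the lowest there (0.181).

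Reads of KRT8 and KRT18 are hard to place, because the human genome holds many processed copies of both genes. The GENCODE 29 annotation (build GRCh38) names 50 copies of KRT8, 67 of KRT18 and 5 of KRT19. A window of 50 bases of the KRT8 coding sequence also occurred, letter for letter, in a transcript of a named KRT8 copy at 48.4% of 1400 positions. For KRT18 this share was 38.8% of 1241 positions and for KRT19 2.09% of 1151. With windows of 100 bases the shares fell to 8.89% for KRT8 and to 0% for KRT18 and KRT19. The deposited tables listed 1 copy of KRT8 and 1 of KRT18 at a level above 0. The first aligned coding bases of the KRT18 copy are shown beside those of KRT18, as an example of the letters that tell the 2 apart. In the copy, capitals mark the letters that differ from the parent, and the stretch runs from the start codon (coding bases 1 to 60, exonic) on the strand of the transcript.
KRT18: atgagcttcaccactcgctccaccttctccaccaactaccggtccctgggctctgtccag
KRT18P55: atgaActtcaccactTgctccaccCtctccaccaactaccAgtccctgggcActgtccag

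KRT18P55 differed from KRT18 at 5 of these 60 bases. Over the whole alignment, KRT8P41 covered 95.4% of the KRT8 coding sequence with 89.9% identical bases, and KRT18P55 covered 99.0% of that of KRT18 with 91.3%. In intermediate filament proteins in general, the ends of the central rod domain are the best conserved part, and the last of these is called the helix termination motif. The 27 coding bases there are shown because they set the type II pair KRT8 and KRT7 beside the type I members. Capitals mark letters that differ from KRT8. KRT80 gave no unique match to the strict residue pattern used in the search, so it is not shown. Whether it holds a variant of the motif was not examined.
KRT8: acctacaggaagctgctggagggcgag
KRT7: acctacCgCaagctgctggagggcgag
KRT18: acctacCgCCGCctgctggaAgATgGC
KRT19: acctacCgCaGCctgctCgagggACag
KRT23: acGtacCgACGgctCctggagggAgag

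KRT7 differed from KRT8 at 2 of these bases, KRT19 and KRT23 at 7 each and KRT18 at 10. The stretch spans codons 390 to 398 in KRT8 and 379 to 387 in KRT18.

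On hg19, the build of the deposited tables, KRT8 lies on chromosome 12 from 53290971 to 53343650 and KRT18 from 53342655 to 53346685. These 2 loci overlap by 996 bases, and the genes are read from opposite strands. The sources used here do not give the strandedness of the libraries, so reads of the 2 genes in the overlap may not have been told apart. Of the 1191 windows of 100 bases in KRT18, 243 also occurred in a KRT8 transcript when both strands were searched. KRT7 (52626954 to 52642709) and KRT80 (52562780 to 52585784) lie on the same chromosome, and KRT19 (39679869 to 39684641) and KRT23 (39078952 to 39093836) on chromosome 17. An antisense gene, KRT7-AS, overlaps KRT7 in GENCODE 29. Values of KRT7, KRT8 and KRT18 are uncertain to the extent that reads were shared in these ways.

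The members fell into 3 tiers of level. KRT8 and KRT18 were abundant, KRT19 stood below them, and KRT7, KRT80 and KRT23 were low. By mean FPKM, KRT8 ranked 562 in primed H9 and 223 in naive H9 among 23613 genes, and KRT18 ranked 490 and 303. KRT19 ranked 1512 and 858. Together the 6 genes held 97.0% to 99.3% of the summed FPKM of all 56 keratin genes in every library. The deposited confidence bounds lay within 5.48% of the value for KRT8, 5.01% for KRT18 and 6.67% for KRT19 in each library. They were as wide as 66.3% for KRT80 and 108% for KRT7, at its lowest value.

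The first comparison asked how the naive state of H9 differed from its primed state. KRT8 rose, KRT19 rose and KRT7 fell, while KRT18 was higher in every naive library without passing the test. Of the 6 members, 4 passed the filter of 1 FPKM in 3 libraries, and 2 of these were called higher and 1 lower (limma on log2(FPKM + 1), Benjamini-Hochberg adjusted p under 0.05 over all genes tested). Of all genes tested, 20.4% were called higher and 23.9% lower, so calls in both directions were common. RNA of whole colonies was measured, so more cells of a type and more RNA per cell cannot be told apart.

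KRT8, the type II partner of KRT18, measured 121.7, 177.5 and 151.3 FPKM in the primed H9 replicates and 396, 352.9 and 523 in the naive ones. The lowest naive library was above the highest primed one. The mean rose 2.82-fold from 150.2 ± 27.9 to 424 ± 88.7 FPKM (SD, n = 3), a log2 change of 1.49 (SE 0.303, limma adjusted p = 0.00287). KRT8 kept its call in every alternative run for H9, with adjusted p-values up to 0.0142. In a fit of the 6 H9 libraries alone, without those labelled RUES2, KRT8 had an adjusted p of 0.00268, KRT19 of 0.0402 and KRT7 of 0.000125.

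KRT18 measured 145.9, 212.5 and 159.4 FPKM in primed H9 and 279.9, 270.3 and 370.4 in naive H9. Again the groups did not overlap. The means were 172.6 ± 35.2 and 306.8 ± 55.2 FPKM, a ratio of 1.78. The log2 difference was 0.83 (SE 0.321), with a limma p of 0.0264 unadjusted and 0.0576 adjusted. In the fit of H9 libraries alone the adjusted p was 0.016, and without primed H9 replicate 2 it was 0.0472. Without primed RUES2 replicate 2 it was 0.0167 and without naive RUES2 replicate 2 it was 0.0419, and over all alternatives it ran from 0.00379 to 0.169. RUES2 libraries enter the H9 test only through the shared spread. Leaving them out kept the difference at 0.83 and changed its SE, to 0.233 and 0.289 in these fits and 0.185 with H9 alone.

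KRT19, a small type I keratin that lacks most of the tail domain, measured 51.1, 63.0 and 45.7 FPKM in primed H9 and 93.5, 69.0 and 130.9 in naive H9. The lowest naive library lay just above the highest primed one. KRT19 rose 1.84-fold from 53.3 ± 8.86 to 97.8 ± 31.1 FPKM (log2 change 0.83, SE 0.275, limma adjusted p = 0.0321). This call ended when libraries were scaled to the same FPKM sum (adjusted p = 0.106), and also when primed H9 replicate 1 (0.0746), primed H9 replicate 3 (0.0975), naive H9 replicate 1 (0.0722) or naive H9 replicate 3 (0.121) was left out, over a range of 0.0143 to 0.121 in all alternatives.

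KRT7 went the other way. It measured 3.74, 4.10 and 3.46 FPKM in primed H9 and 0.195, 0.160 and 0.207 in naive H9. Every naive library was far below every primed one. The mean was 20.1-fold higher in primed cells (3.77 ± 0.322 against 0.187 ± 0.0245 FPKM), and on the log2(FPKM + 1) scale KRT7 fell by 2.00 (SE 0.160, limma adjusted p = 8.69e-06).

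KRT80, a type II keratin found in many epithelia, stayed under 1 FPKM in every library and did not enter the filtered test. It measured 0.203, 0.181 and 0.228 FPKM in primed H9 and 0.542, 0.444 and 0.769 in naive H9, groups that did not overlap. In the fit without a filter its log2 difference was 0.39 (limma adjusted p = 0.0456). KRT23, the remaining type I member, was at most 0.0862 FPKM in any library and was listed at 0 in 7 of the 12.

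**Figure D1:**
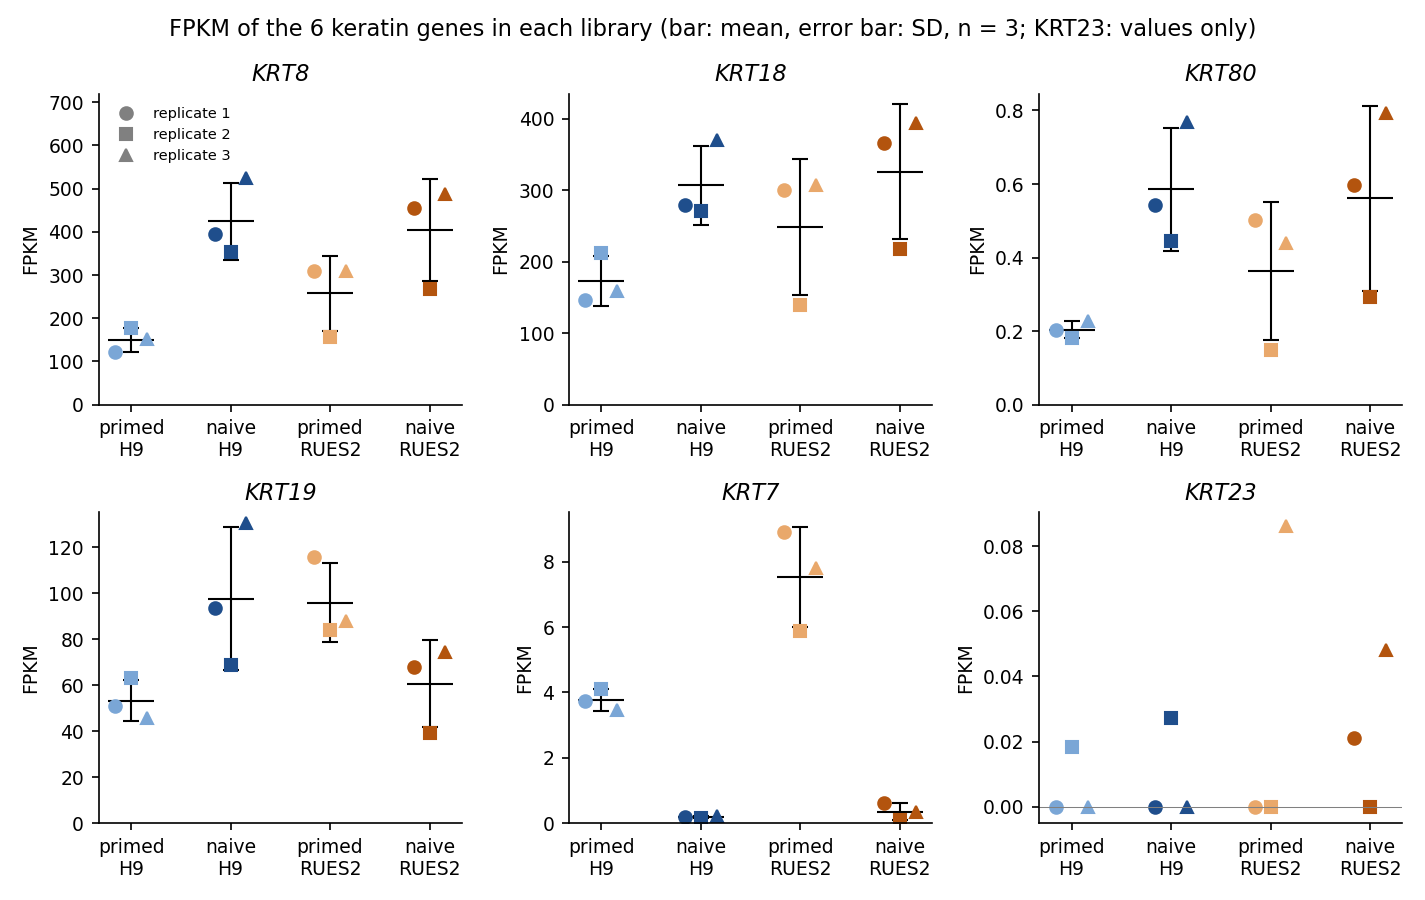
FPKM (vertical axis, a separate linear scale for each gene) of the 6 keratins in each of the 4 groups. Points are single libraries with their shape giving the replicate, bars are means and error bars SD (n = 3), and KRT23 is shown as values only. KRT8, KRT18, KRT19 and KRT80 are higher in all 3 naive H9 libraries than in any primed H9 library, KRT7 is near 0 in all 6 naive libraries, and replicate 2 (square) is the lowest RUES2 point in 5 of the panels.

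The same question was asked of the libraries labelled RUES2. Here KRT7 fell and no other member passed the test, so 1 of the 4 tested members was called lower and 0 higher. Of all genes tested, 23.1% were called higher and 23.6% lower. At an unadjusted p under 0.05, KRT19 would have been called as well, in the direction opposite to H9, and still 0 members higher (limma).

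KRT7 measured 8.91, 5.87 and 7.82 FPKM in primed RUES2 and 0.625, 0.0999 and 0.337 in naive RUES2. The states did not overlap. The primed mean was 21.3-fold the naive one (7.53 ± 1.54 against 0.354 ± 0.263 FPKM), a log2 change of -2.66 (SE 0.160, limma adjusted p = 1.77e-06). The call held in all alternatives in both lines.

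KRT8 measured 308.2, 157.4 and 308.4 FPKM in primed RUES2 and 455, 268.4 and 488 in naive RUES2. The groups overlapped through naive replicate 2. The means of 258 ± 87.1 and 404 ± 119 FPKM gave a ratio of 1.57 and a log2 difference of 0.66 (SE 0.303, limma adjusted p = 0.0966). Without naive RUES2 replicate 2 the adjusted p was 0.0324, and without replicate 2 of both states it was 0.0492, a choice made after the values were seen. Over all alternatives it ran from 0.0324 to 0.334.

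KRT18 measured 299.6, 139.0 and 306.9 FPKM in primed RUES2 and 366.5, 217.5 and 394.1 in naive RUES2, so the groups overlapped in the same way. Its means were 248.5 ± 94.9 and 326.1 ± 94.99 FPKM, with a log2 difference of 0.43 (95% confidence interval -0.28 to 1.143, limma adjusted p = 0.296). KRT80 had values of 0.501, 0.149 and 0.441 FPKM in primed RUES2 and 0.597, 0.293 and 0.793 in naive RUES2, which overlap.

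KRT19 measured 115.9, 84.0 and 88.2 FPKM in primed RUES2 and 68.1, 39.1 and 74.7 in naive RUES2. All 3 naive libraries were below all 3 primed ones. The mean was 96.0 ± 17.4 in primed and 60.6 ± 18.9 FPKM in naive cells, a log2 difference of -0.69 (SE 0.275) with a limma adjusted p of 0.0608. With libraries scaled to the same FPKM sum the adjusted p was 0.0316, with the upper quartile scaled it was 0.047, without naive H9 replicate 2 it was 0.0473, without naive H9 replicate 3 it was 0.0451 and without naive RUES2 replicate 3 it was 0.0414. The highest value over the alternatives was 0.219. H9 libraries enter this test only through the shared spread.

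Whether the naive effect differed between the lines was tested as a difference of the log2 changes, RUES2 as labelled minus H9. KRT19 was called lower (-1.52, SE 0.389, limma adjusted p = 0.0489), and the other 3 tested members were not called. Of all genes tested, 3.77% were called higher and 1.93% lower in this comparison. The adjusted p of KRT19 was close to the threshold and passed it in 2 of the 12 fits that left out a library, with a highest value of 0.112 without primed RUES2 replicate 1. The call was also lost with the replicate number as a block (0.0533), with no filter (0.0645), with a filter of 5 FPKM (0.0597), with sum scaling (0.0742) and with no variance trend (0.0513). The 95% intervals of the other differences ran from -1.16 to -0.15 for KRT7, from -1.78 to 0.13 for KRT8 and from -1.41 to 0.61 for KRT18, so for KRT8 and KRT18 both no difference and a loss of the whole H9 effect lie within the interval.

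Between the lines in the primed state, KRT7 was called higher in RUES2 than in H9 (log2 difference 0.83, SE 0.160, limma adjusted p = 0.0338), 1 of 4 members, where 1.34% of all genes tested were called higher and 0.471% lower. The call ended in 9 of the 12 fits without a library, with adjusted p-values up to 0.149 without primed RUES2 replicate 1, with a pseudocount of 0.1 (0.277), with a filter of 5 FPKM (0.125) and in a fit of the 2 primed groups alone (0.209), over a range of 0.00491 to 0.277 in all alternatives. KRT19 values did not overlap between the primed lines, at 1.80-fold more in RUES2, with an adjusted p of 0.187. In the naive state 0 members were called in RUES2 as labelled against H9 (limma), while 11.2% of all genes tested were called higher and 4.69% lower. At an unadjusted p under 0.05, 1 member, KRT19, was lower (log2 difference -0.69, adjusted p = 0.122). KRT8 means in the naive groups, 424 and 404 FPKM, differed by less than their SD. These 5 comparisons share libraries, so they are not independent of each other.

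**Figure D2:**
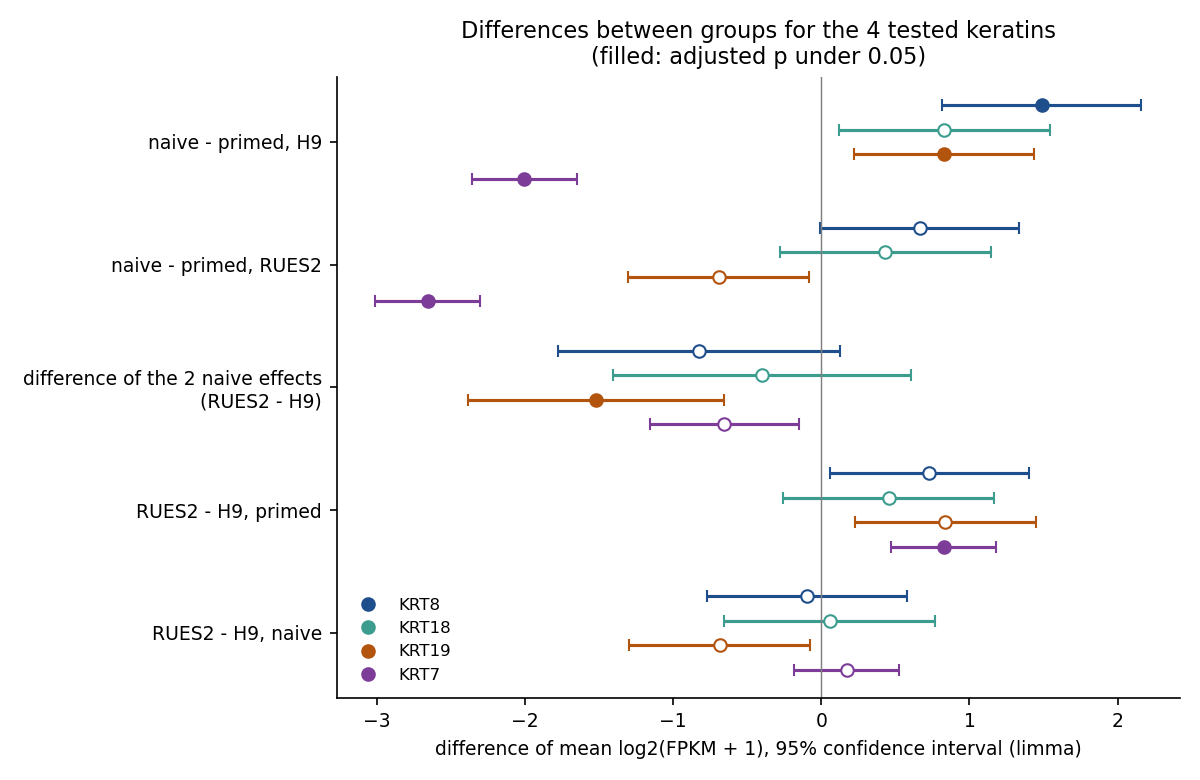
Difference of mean log2(FPKM + 1) between groups (horizontal axis, with 95% confidence interval from limma) for KRT8, KRT18, KRT19 and KRT7 in the 5 comparisons (vertical axis). Filled points have an adjusted p under 0.05. KRT7 lies below 0 in both lines, and KRT19 lies at 0.83 in one line and -0.69 in the other.

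Because type I and type II keratins pair one to one, their RNA was also compared as a ratio within each library, which cancels any factor common to the members. The summed FPKM of the type I members (KRT18, KRT19, KRT23) over that of the type II members (KRT7, KRT8, KRT80) was 1.57, 1.52 and 1.32 in primed H9 and 0.941, 0.960 and 0.956 in naive H9. In primed RUES2 it was 1.31, 1.36 and 1.25, and in naive RUES2 0.952, 0.955 and 0.958. By FPKM, the type I sum was thus above the type II sum in all 6 primed libraries and slightly below it in all 6 naive ones. KRT18 alone was below KRT8 in primed RUES2 as well (ratio 0.883 to 0.995). Which sum is the larger also depends on how the shared reads of KRT8 and KRT18 were placed, which was not tested. The naive values of the summed ratio spanned a narrow range in both lines, although KRT8 itself ranged from 268.4 to 523 FPKM in those libraries.

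The mean ratio went from 1.47 ± 0.129 to 0.952 ± 0.00996 in H9 and from 1.31 ± 0.0582 to 0.955 ± 0.00281 in RUES2 as labelled. An exact two-sided permutation test gave p = 0.1 in each line, the smallest value that 3 against 3 libraries can give.

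The pair KRT18 and KRT8 alone moved in the same direction. Their ratio was 1.199, 1.197 and 1.05 in primed H9 against 0.707, 0.766 and 0.708 in naive H9. In RUES2 it was 0.972, 0.883 and 0.995 in primed and 0.805, 0.810 and 0.807 in naive libraries. Neither line had overlapping states (exact permutation p = 0.1 in each line). The difference between the means was -0.42 in H9 and -0.14 in RUES2 as labelled. The ratio of KRT19 to KRT18 was 0.311 ± 0.0342 in primed and 0.314 ± 0.0519 in naive H9, which overlapped (exact permutation p = 0.9). In RUES2 as labelled it was 0.426 ± 0.162 in primed and 0.185 ± 0.00488 in naive libraries, which did not (exact p = 0.1).

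**Figure D3:**
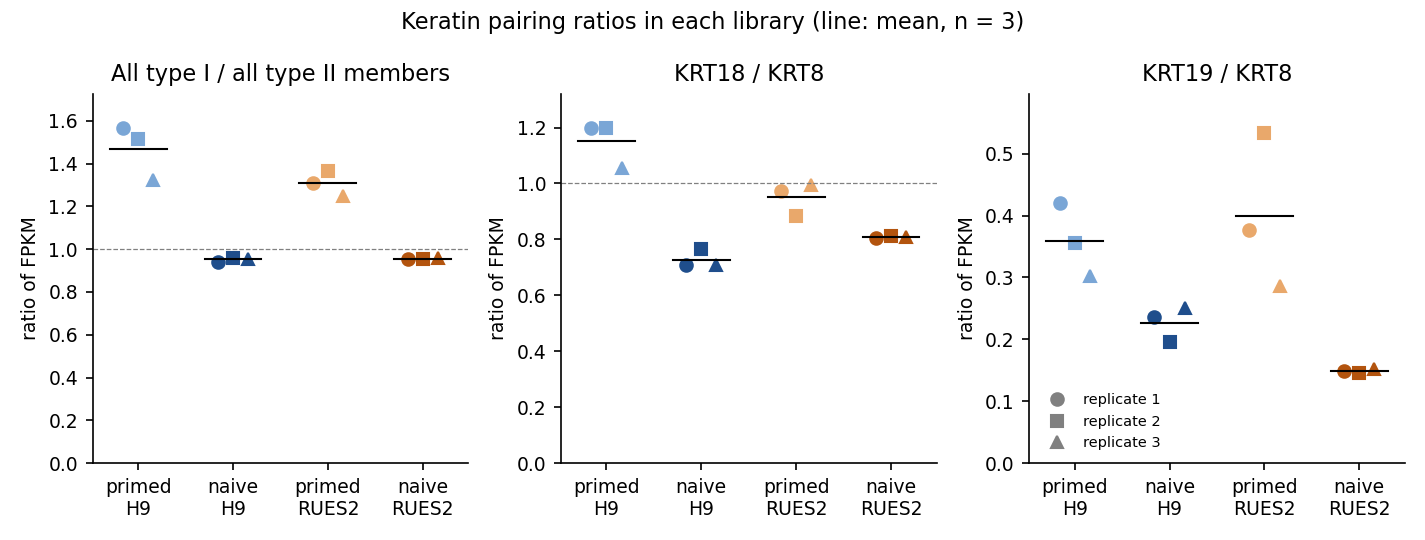
Ratio of FPKM (vertical axis) in each library for all type I over all type II members, KRT18 over KRT8, and KRT19 over KRT8, with replicates by shape, the group mean as a line and a dashed line at 1. The summed ratio is between 1.25 and 1.57 in the 6 primed libraries and between 0.941 and 0.960 in the 6 naive ones.

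The copies of KRT8 and KRT18 in the tables were low, at most 1.54 FPKM, and had higher naive means in both lines. KRT8P41 (chromosome 11, 9115910 to 9117737) rose from 0.463 ± 0.0878 to 1.144 ± 0.343 FPKM in H9 (limma adjusted p = 0.0165). In RUES2 as labelled it measured 0.580 ± 0.206 and 0.948 ± 0.279 (0.135). KRT8P41 reached 1 FPKM in naive libraries only, so it passed the filter through the state where it was higher. KRT18P55 (chromosome 17, 26603012 to 26634408) measured 0.594 ± 0.212 and 1.05 ± 0.293 FPKM in H9 (adjusted p = 0.114) and 0.818 ± 0.314 and 1.28 ± 0.335 in RUES2 (0.147). Whether their reads came from the copies or from the parent genes was not tested. KRT19P2 was listed at 0 in every library.

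Most other keratins were absent or nearly so. Of 50 other keratin genes, 42 were under 0.1 FPKM in every library, and 2 reached a group mean of 1 FPKM. KRT10, a type I keratin of the upper epidermis, rose in RUES2 as labelled from 4.60 ± 0.520 to 6.46 ± 0.275 FPKM (limma adjusted p = 0.0258). In H9 it measured 5.44 ± 1.04 and 7.12 ± 0.969 (0.061). KRT17, a type I keratin of basal and wounded epithelium, was not called in any comparison, and its primed H9 mean of 2.096 FPKM rested on replicate 2. The pseudogenes KRT16P1, KRT16P2 and KRT16P3, singled out after their values were seen, had higher naive means in both lines. They passed the filter only through the libraries labelled naive RUES2, so no test of them is read. KRT16P3 measured 0.108 ± 0.0319 and 0.903 ± 0.0808 FPKM in primed and naive H9, and 0.213 ± 0.203 and 2.31 ± 0.888 in RUES2 as labelled. Their parent KRT16 was at most 0.443 FPKM.

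Genes of other intermediate filaments were mostly higher in the naive state. Of 16 listed, 14 were tested, and 11 were called higher and 1 lower in H9, with 8 higher and 0 lower in RUES2 as labelled. The median log2 change was 0.70 and 0.62, beside -0.01 and 0.01 over all genes tested. VIM, the filament of mesenchymal cells, rose in H9 from 227 ± 67.9 to 430.5 ± 29.1 FPKM, and the neurofilament gene NEFL rose from 3.77 ± 0.765 to 32.2 ± 14.3. NEFH rose from 1.77 ± 0.960 to 6.42 ± 0.403 FPKM in H9 and further, to 47.2 ± 19.4, in naive RUES2 (difference of the log2 changes 2.02, limma adjusted p = 0.041).

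Desmosomes and plakins tie keratin filaments to junctions. Of 22 such genes, 15 were tested, and 2 were called higher and 8 lower in H9, with a median log2 change of -0.41. In RUES2 as labelled 1 was higher and 9 lower, with a median of -0.39. DSP (desmoplakin, the main link between desmosome and keratin) rose in H9 from 16.5 ± 0.961 to 51.9 ± 3.13 FPKM (adjusted p = 2.5e-05). In RUES2 it measured 26.1 ± 4.18 and 33.3 ± 7.09 (0.1), and the difference between the lines was called (-1.27, limma adjusted p = 0.00912). The members that fell in both lines included PPL (periplakin, 7.96 ± 2.63 to 0.914 ± 0.0422 FPKM in H9) and PKP3 (plakophilin 3, 4.70 ± 2.47 to 0.348 ± 0.073).

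Factors known to act on keratin or epithelial genes moved in both directions. Of 26 listed, 21 were tested, with 6 called higher and 4 lower in H9 and a median log2 change of 0.04, and 3 higher and 5 lower in RUES2 as labelled (median -0.19). Set against the shares of all genes called in these comparisons, given above, nothing is read from these counts. GRHL2, which maintains epithelial gene expression, fell in H9 from 5.03 ± 0.761 to 0.0683 ± 0.0246 FPKM and in RUES2 from 7.40 ± 0.878 to 0.121 ± 0.0513. Its relative GRHL3 rose in H9 from 0.630 ± 0.303 to 5.27 ± 0.712 FPKM and measured 7.21 ± 2.86 and 6.55 ± 2.36 in RUES2, with a called difference of -2.06 (limma adjusted p = 0.0143). TFAP2C, a factor of trophectoderm and naive cells, rose in H9 from 4.88 ± 3.54 to 18.2 ± 0.758 FPKM. It measured 10.6 ± 2.58 in primed RUES2 and 18.3 ± 2.19 in libraries labelled naive RUES2 and was not called (log2 difference 0.75, limma adjusted p = 0.151). Keratin regulators and binding proteins showed 4 higher and 5 lower of 16 tested in H9 (median 0.09) and 3 higher and 3 lower in RUES2 (0.07), and nothing is read from these counts either. TCHP (trichoplein, which binds KRT8 and KRT18) rose from 4.87 ± 1.85 to 9.16 ± 0.199 FPKM, and SFN (14-3-3 sigma) fell from 2.58 ± 0.791 to 0.838 ± 0.104.

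The general epithelial markers went against KRT8. Of 20 listed, 19 were tested, and 0 were called higher and 17 lower in H9, with a median log2 change of -2.05. In RUES2 as labelled 0 were higher and 18 lower (-1.79). At an unadjusted p under 0.05 (limma), 0 were higher in either line and 17 and 19 were lower. CDH1 (E-cadherin) fell in H9 from 53.7 ± 22.9 to 3.34 ± 0.878 FPKM, CLDN7 (claudin 7) from 39.2 ± 16.3 to 1.07 ± 0.123 and MAL2, a sorting protein of the apical membrane, from 33.3 ± 7.17 to 0.989 ± 0.289. KRT7 fell as well, and KRT8 did not.

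**Figure D4:**
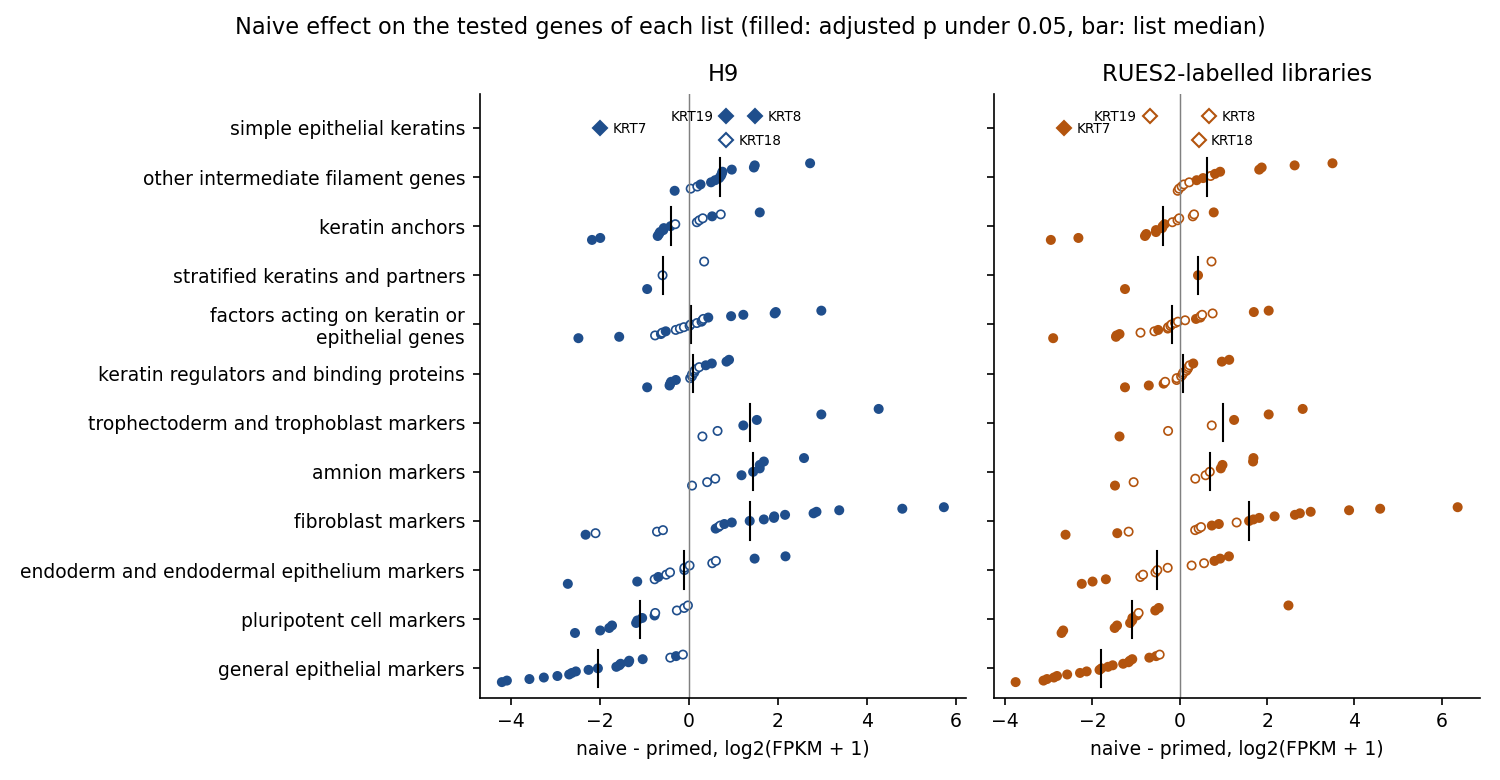
Naive minus primed difference in log2(FPKM + 1) (horizontal axis) for every tested gene of each list and for the 4 tested keratins (diamonds), in H9 and in RUES2 as labelled. Filled symbols have an adjusted p under 0.05 and the bar is the list median, which for general epithelial markers is -2.05 in H9 and -1.79 in RUES2.

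Markers of other cell types also moved with the state. The 24 measured trophectoderm and trophoblast markers (of 25 listed) summed to 3.22, 10.6 and 3.899 FPKM in primed H9 and 58.1, 28.6 and 99.4 in naive H9. In RUES2 they summed to 17.9, 9.97 and 13.3 in primed and 41.6, 21.4 and 59.6 in naive libraries. Every naive library was above every primed library of its line. In all 4 groups the library with the lowest sum was also the lowest in KRT8 and in KRT18, and in 3 of the 4 the highest was the highest in both. The lowest fibroblast sum fell in the library lowest in KRT8 and KRT18 in 3 of the 4 groups. The highest fibroblast sum fell in the library highest in both in 3. For the amnion list these counts were 2 and 3. Other lists matched less, with 2 and 0 for the general epithelial and the endoderm lists. The counts were 3 and 0 for the keratin anchors and 1 and 1 for the pluripotent cell markers. In both RUES2 groups replicate 2 was also the lowest library for 14.7% of all genes tested. Whether the order of the libraries has a link to trophoblast markers was not tested. Of 6 tested markers 4 were called higher and 0 lower in H9 (median log2 change 1.37), and 3 higher and 1 lower in RUES2 (0.99). CDX2 and SLC40A1 passed the filter only with the help of their naive libraries, so these counts and medians lean upward. In naive libraries most of the sum was HAND1, a factor of trophoblast and of extraembryonic and cardiac mesoderm (1.64 ± 2.76 to 41.9 ± 29.3 FPKM in H9), and CDX2 (0.461 ± 0.798 to 9.65 ± 2.00). Among the defining trophoblast genes, ELF5 was at most 0.0322 FPKM, CGA at most 0.170 and GATA3 at most 0.659 in naive H9. GATA2 had a mean of 0.119 ± 0.0387 in primed and 0.709 ± 0.449 FPKM in naive H9, and TFAP2A was called higher, from 0.212 ± 0.194 to 1.94 ± 1.06. In RUES2 GATA3 was higher in the primed libraries (1.52 to 4.37 FPKM) than in the naive ones (0.244 to 0.374). The part of such cells in the rise of KRT8 was not tested.

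**Figure D5:**
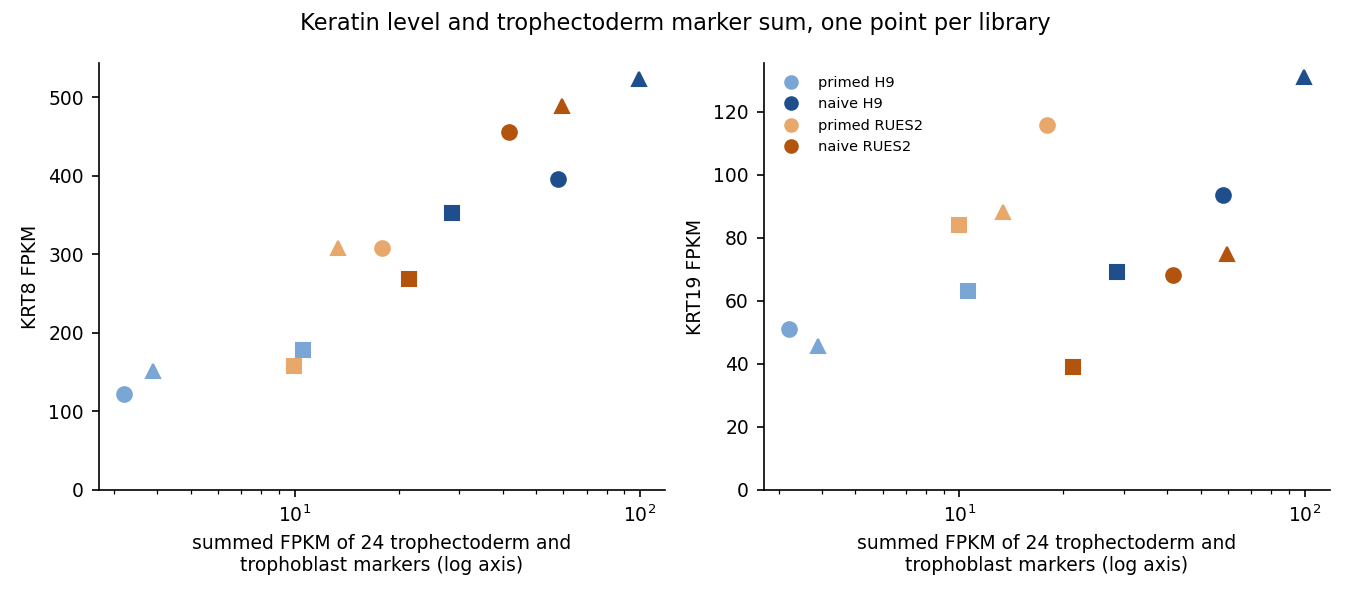
FPKM of KRT8 (left) and KRT19 (right) against the summed FPKM of the trophectoderm and trophoblast markers (horizontal log axis), 1 point per library with groups by colour and replicates by shape. The library with the lowest sum in a group is also the lowest in KRT8 in all 4 groups, and KRT19 in naive RUES2 (39.1 to 74.7) lies below primed RUES2 (84.0 to 115.9) at higher marker sums.

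Amnion markers summed to 50.3 to 153.4 FPKM in primed and 156.3 to 267.1 in naive H9, with 6 of 9 tested called higher and 0 lower (median log2 change 1.44). In RUES2 as labelled 4 were higher and 1 lower (0.69), and the sums overlapped. CDH10, POSTN and ISL1 reached 1 FPKM in naive libraries only, so these counts and medians lean upward through the filter. BMP4 rose in H9 from 5.02 ± 0.890 to 37.7 ± 17.7 FPKM and ID2 from 20.7 ± 9.59 to 60.7 ± 6.16. In RUES2 as labelled ISL1 measured 0.629 ± 0.293 in primed and 2.16 ± 0.801 FPKM in naive libraries. IGFBP3 fell there from 16.7 ± 9.20 to 6.17 ± 5.80. The amnion markers GABRP and VTCN1 were low, at most 0.348 and 0.0765 FPKM in naive H9. Fibroblast markers summed to 473.5 to 610.7 FPKM in primed and 1062 to 1405 in naive H9, with 14 of 19 tested higher and 1 lower (median 1.37), and 12 higher and 2 lower in RUES2 (1.59). COL3A1, a fibrillar collagen, rose from 2.51 ± 2.70 to 161 ± 56.5 FPKM in H9. DCN and POSTN of the fibroblast list also reached 1 FPKM in naive libraries only. The pluripotent cell markers that define the labelled cell type were present in every group, summing to at least 1351 FPKM in every library, and 8 of 12 were called lower and 0 higher in H9 (median -1.11), with 10 lower and 1 higher in RUES2 (-1.09). Endoderm markers showed 2 higher and 3 lower of 13 tested in H9 (-0.10) and 3 and 3 in RUES2 (-0.51). Beside the shares of all genes called, given above, nothing is read from these endoderm counts. Of the stratified keratins and partners, 3 of 24 were tested, with 0 higher and 1 lower (SFN) in H9 (-0.60) and 1 each in RUES2 (0.42). At an unadjusted p under 0.05 (limma), the counts of 0 given for the other lists stayed at 0, except that 1 stratified gene, KRT10, was then higher in H9. Some genes stand in 2 lists, such as VIM, SFN, CDX2 and POSTN. The part of any of these cells in the keratin values was not tested.

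Genes whose pattern over the 12 libraries was most like that of a member were found by the root mean square difference of mean-centred log2(FPKM + 1), among 10226 genes that reached 5 FPKM in some group's mean. For KRT8 the 3 closest were TMEM185A (0.196), CXorf40B (0.211) and TMEM51 (0.228), and KRT18 was the sixth (0.256). For KRT18 they were GGT1 (0.203), FUNDC1 (0.231) and MOSPD2 (0.244), and KRT8 again ranked the sixth. Genes close to KRT19 included NKAIN4 (0.242) and TNNC1 (0.271), and KRT8 ranked 6345 and KRT18 1763 from it. KRT7 was closest to ZNF280D (0.196), SLC7A3 (0.229) and RAMP2 (0.258). SLC7A3, an amino acid transporter, fell in both lines, from 51.4 ± 11.0 to 10.9 ± 0.599 FPKM in H9 and from 87.9 ± 11.0 to 16.7 ± 2.76 in RUES2 as labelled. KRT8 and KRT18 lay closer to each other than to KRT19 (0.589 and 0.478), and KRT7 lay 1.26 to 1.72 from the other 3. These distances are descriptions, and they grow with the spread of each gene.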

How the data were processed

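The members and gene lists were chosen with earlier results of these data known. Reads were handled with TopHat2 2.1.1 and bcl2fastq 2.17.1.14 on build hg19, per the submitters' processing notes. What program and annotation gave the expression values is not given in the sources at hand. Tables deposited by the authors, 1 for each library, hold FPKM with confidence bounds according to their headers, while the design text says RPKM. Each held 25278 entries for 23615 symbols. The 2 rows with a status other than OK were dropped, and for 554 symbols with several rows the row of the highest mean level was used. Starts were made 1-based. The tables hold no counts, so depth is unknown and no count test was run.

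The 14428 genes that reached 1 FPKM in 3 or more libraries entered limma 3.58.1 (R 4.3.3, two-sided) as log2(FPKM + 1), in 1 model of all 12 libraries with a mean per group and a variance trend. P-values were adjusted by Benjamini-Hochberg over all genes tested, and the code was tested on simulated data. Differences on this scale understate those of low genes. A gene could pass the filter through the state where it was high, so counts and medians of a list lean toward such genes. With libraries scaled to the same FPKM sum, the median of all genes moved by -0.11 in H9 and -0.22 in RUES2. The share of calls that were higher then went from 46.0% to 28.1% in H9 and from 49.4% to 24.2% in RUES2. Single ratios were tested by exact permutation.

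Named genes were all members, other keratins that averaged 1 FPKM or more in a group, copies of members, up to 4 called genes per list with the largest change in H9 and the 3 genes most like each tested member, of which 1 is not reported here. Alternatives were another pseudocount, filters, scalings, fits and each library left out. Sequences and copies come from GENCODE 29 transcripts, read in Python 3.11.15 with Biopython 1.88. Plots were made with matplotlib 3.10.9.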

Additional observations from a re-analysis of the deposited data

Results flagged for a closer look

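A test of the difference itself placed the naive effect on KRT19 just past the threshold between the lines, at -1.52 on the log2 scale in RUES2 as labelled minus H9 (SE 0.389, limma adjusted p = 0.0489). The call was lost with the replicate block (0.0533), with no filter (0.0645), with a filter of 5 FPKM (0.0597), with sum scaling (0.0742), with no variance trend (0.0513), without both replicates 2 of RUES2 (0.0902) and in 10 of the 12 fits without a library (up to 0.112). KRT19 was higher in 3 of 3 naive H9 libraries and lower in 3 of 3 libraries labelled naive RUES2 than in any primed library of the same line. The 3 naive RUES2 libraries are those in which THNSL2 was off. The cause was not tested.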

How the results depend on the processing

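In many of the alternative fits the log2 difference could not change. The library left out lay outside the comparison, or only the filter or the estimate of spread differed. The count of kept directions is thus partly fixed in advance. Of 436 member values recomputed, 381 kept direction and side of the threshold, 33 lost the threshold, 14 gained it and 8 changed sign. All 8 belong to RUES2 as labelled against H9 in the naive state, where neither gene was called in any alternative. KRT8 (-0.10) ran from -0.26 to 0.17 without 1 library and was 0.17 without both replicates 2, and KRT18 (0.06) ran from -0.10 to 0.32 and was -0.017 with sum scaling. In H9 the number of members called was 3 and ran from 2 to 4. In RUES2 as labelled it was 1, with 2 under upper quartile scaling, sum scaling and without both replicates 2, and 1 to 2 without 1 library. For the difference it was 1, and 0 with no filter, a filter of 5 FPKM, sum scaling, the replicate block, no variance trend and without both replicates 2, and 0 to 1 without 1 library. For the primed lines it was 1, and 0 with a pseudocount of 0.1, a filter of 5 FPKM and a fit of the 2 groups, 2 without both replicates 2, and 0 to 1 without 1 library. Genes called for the difference numbered 823, and 424 with the 5 FPKM filter (408 to 920 without 1 library). For the primed lines they were 262, then 102 with that filter, 170 with the replicate block and 27 in the fit of the 2 groups (61 to 385 without 1 library). For the naive lines they were 2289, then 1469 and, with sum scaling, 1522 (1213 to 2811). The ratio fell by 0.143 in RUES2 with KRT18 and KRT8 alone, not 0.352. Same-numbered libraries did not deviate together (correlations -0.0537 to 0.0825), so the numbers were not treated as pairs. With the replicate block KRT18 in H9 had an adjusted p of 0.047 and the KRT19 difference 0.0533. The causes were not tested. Wide deposited bounds limit KRT7, KRT80 and KRT23 at their low levels.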

Other observations

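Of the 6 genes most like KRT8 or KRT18 over the 12 libraries, 4 lie on chromosome X (TMEM185A, CXorf40B, FUNDC1 and MOSPD2), while 3.75% of the 10226 genes compared do. SLC7A3, which was close to KRT7 and fell in both lines, also lies on chromosome X. FUNDC1, a mitophagy receptor, measured 12.8 ± 0.695 FPKM in primed and 26.9 ± 2.51 in naive H9, and TMEM185A 6.47 ± 0.172 and 17.5 ± 4.08. This is a description of 6 genes picked for likeness, with no test.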
